A study of Sus scrofa with 57 samples.

Results

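The regions described here are 2063 stretches of the pig genome at which less or more methylated DNA was captured from adipocytes of obese than of lean pigs, and which lay between genes but close to one. They were taken from the 7401 regions of the deposited comparison of captured DNA by 4 criteria. A region had to lie on chromosomes 1 to 18, to have a mean normalized count of the groups under 40, to overlap no annotated gene locus, and to have its nearest locus at most 50000 bases away. The direction of each region came from the mean of the obese against the mean of the lean libraries, so that contrast chose the regions and its values are given as a description without a test. Of the other regions, 2845 overlapped a locus, 1746 lay farther away, 415 had a higher mean count and 332 lay on other sequences.

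In mammalian cells, DNA methylation is found mainly at cytosines followed by guanine (CpG), where it is copied at replication and can be read by proteins with a methyl-CpG-binding domain. Such a domain, fixed to beads, holds back DNA fragments in proportion to their number of methylated CpGs, so that captured read counts depend on methylation and on CpG density together. DNA between genes holds promoters that are not annotated, enhancers and repeats, and in most tissues the bulk of it is methylated while active regulatory elements lose methylation.

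The animals were F2 pigs of an intercross between the Göttingen minipig, which is prone to obesity, and the lean Duroc, chosen as lean and obese extremes and without any treatment. Mature adipocytes, the lipid-filled fat cells, were obtained from retroperitoneal fat by collagenase digestion and flotation. Methylated DNA capture (mDNAcap) compared 11 obese with 11 lean libraries, each from boars and sows, reduced representation bisulfite sequencing (RRBS) used the same cell material, and RNAseq used 5 lean and 5 obese boars. The labels call 13 mDNAcap samples obese and 10 lean, whereas the deposited comparison lists pig-411, labelled obese, on the lean side and does not list pig-584. The 11 values a group carry no animal names, so no result could be given without pig-411, by sex or by sequencing run folder, of which each group had libraries in both. Ages are not given in the labels, and an F2 cross limits the groups as a model in that the pigs differ in their whole genome as well as in fatness. Of the adipocyte markers, 7 of 8 genes with a locus had a mean FPKM of at least 1, and their summed FPKM was 2108 to 2627 in lean and 1947 to 3059 in obese pigs. The macrophage and leukocyte list summed to 9.64 to 24.9 and 12.9 to 26.1, with TYROBP, C1QA, C1QC and CD14 at a mean of at least 1 and PTPRC, CD68, CD163 and CSF1R below it. The fibroblast and preadipocyte list summed to 237 to 750 and 264 to 638, with COL3A1 at a mean of 396 and DCN at 50.8. CD34, DLK1, DPP4, PDGFRA and PDGFRB of that list were below a mean of 1. In the endothelial list only EGFL7 and PECAM1 reached a mean of 1, and in the smooth muscle list only CSPG4, RGS5 and TAGLN. In these bulk samples a change in the share of cells of a type and a change within those cells cannot be told apart.

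Of the 2063 regions, 1601 (77.6%) were lower and 462 (22.4%) were higher in obese pigs. Group means of the lower regions had a median of 10.4 normalized counts in obese against 17.1 in lean libraries, and those of the higher regions 26.4 against 17.9. The log2 ratio of the group means, each plus 1, ran from -1.38 to -0.40 with a median of -0.67 in the lower regions and from 0.36 to 0.88 with a median of 0.54 in the higher ones, and 12 lower regions and 0 higher ones reached a ratio of the means of at least 2. The lower share was 61.6% among captured regions that overlap a locus and 85.9% among those more than 50000 bases away, which places the regions near genes between these classes. In a limma fit over all 7401 regions, used here as background since the same contrast chose the rows, 96.2% of the table passed an adjusted p of 0.05, 69% lower and 27.1% higher, and 2032 of the 2063 regions were called (1588 lower and 444 higher). That split moved with the scaling of the libraries. When they were scaled by the median of ratios, 234 lower and 460 higher regions were called, 33.6% of the 2063, beside 807 lower and 2125 higher regions or 39.6% of the entire table. That median was taken over the chosen regions themselves, 70.7% of which were lower, so it can take up part of their shift. With the deposited mean read count per bin as the scaling, 311 lower and 458 higher regions were called. Which scaling is right was not tested. The median log2 ratio of the entire table was -0.62 with the deposited scaling, -0.33 with the median of ratios and -0.36 with a scaling to equal mean reads per bin. The median of the regions near genes was -0.64, -0.35 and -0.38, which is -0.02 relative to the table in each scaling.

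The libraries differed in the same way in single values. Averaged over the 1601 lower regions, the normalized count was 15.4 to 21.5 in lean libraries (median 18.2, mean 18.5 ± 2.03 SD, n = 11) and 7.82 to 17.2 in obese libraries (median 11.6, mean 11.4 ± 2.75 SD, n = 11). Over the 462 higher regions it was 16.5 to 20.05 in lean (median 17.9, mean 18.1 ± 1.16 SD) and 21.3 to 33.3 in obese libraries (median 25.1, mean 26.6 ± 3.78 SD). The lean and obese libraries overlapped for the lower regions through a single obese library at 17.2, and they did not overlap for the higher regions, a separation that the choice of regions favours. The ratio of the reads in the lower regions to those in the higher regions does not depend on the scaling of a library. It was 2.69 to 4.45 in lean libraries (median 3.50) and 0.813 to 2.79 in obese libraries (median 1.61). The obese library with the highest ratio also stood apart in its mean read count per bin divided by its constant, 2.72 against 1.12 to 1.69 in the other 10 obese libraries. Without that library the median log2 ratio was -0.69.

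**Figure D1:**
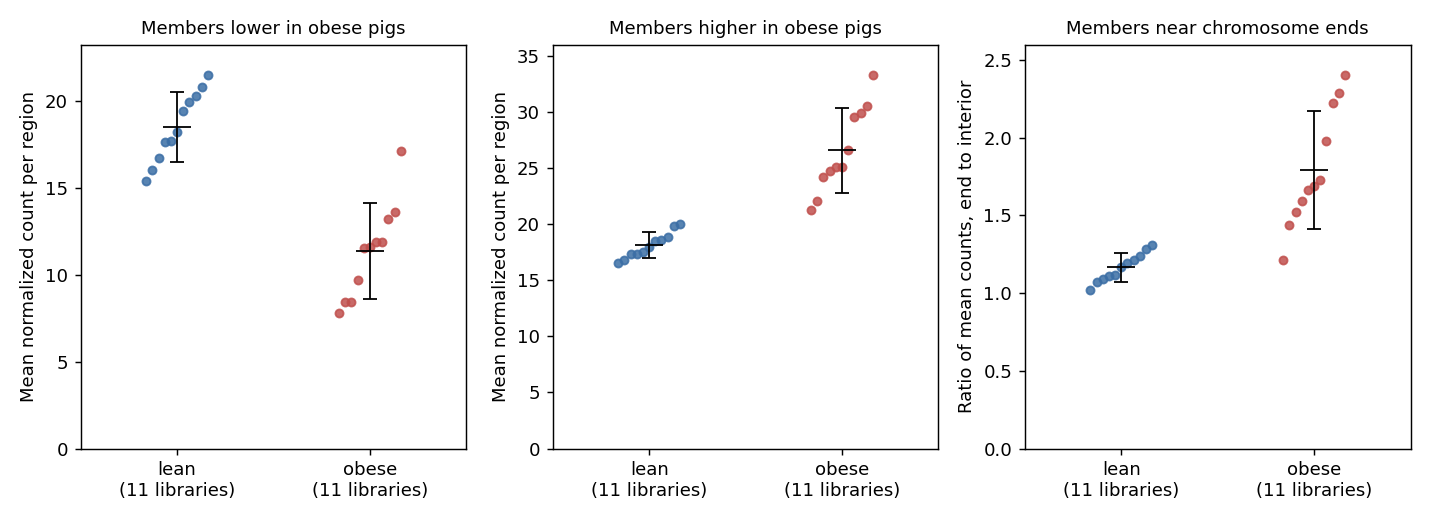
Each point is 1 mDNAcap library, and black bars give the mean and SD of 11 libraries a group. The left and middle panels show the mean normalized count over the 1601 lower and the 462 higher regions, and the right panel shows the mean count of regions under 5000000 bases from a chromosome end divided by that of regions at least 10000000 bases from it, which is 1.02 to 1.31 in lean and 1.21 to 2.41 in obese libraries. In each panel the choice of regions by the same contrast favours a difference between the groups.

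Depth differed among the libraries. The mean read count per bin was 0.63 to 7.04 in lean and 0.44 to 4.10 in obese libraries, and the reads in the regions near genes, recovered from the normalized counts and the constants, were 14747 to 133667 and 9488 to 84061. The obese library with 0.44 reads per bin had 10.7% of the regions at 0 and the lowest ratio of lower to higher regions, 0.813. The next shallowest obese libraries, with 0.55, 0.72 and 1 reads per bin, had ratios of 0.975, 1.14 and 0.958. The deeper obese libraries had 1.51 to 2.79. Lean libraries with 0.63, 0.69 and 0.94 reads per bin had ratios of 4.08, 3.50 and 4.07, and the deepest, with 7.04, had the lowest lean ratio, 2.69. At least 1 obese library was at 0 in 352 of the 1601 lower regions (21.99%), and no lean library was. At least 1 lean library was at 0 in 18 of the 462 higher regions, and no obese library was. The part of depth in these zeros and ratios was not tested.

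The direction moved with the captured signal of a region. Of the 200 regions with a mean normalized count under 10, 89% were lower in obese pigs, and of the 499 regions from 12 to 15 the share was 90.0%. It was 81.4% of 501 regions from 15 to 20, 58.5% of 241 regions from 20 to 25, 39.2% of 143 regions from 25 to 30 and 25% of 116 regions from 30 to 40. The median mean count was 13.8 in the lower and 22.01 in the higher regions. Length differed little, with a median of 1100 bases in both directions and 42.2% of the regions at the window length of 1000 bases. The spread between obese libraries was wider in the lower regions, with a median coefficient of variation of 42.9% against 29.1% between lean libraries, whereas it was 29.9% and 29.97% in the higher regions.

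The direction also moved with the place on the chromosome. The selection did not use that place, but it used the contrast that gives the direction. The distance was measured to the nearer end of the annotated extent, which runs from the first base to the end of the last gene locus of a chromosome. Of the 268 regions less than 2000000 bases from an end, 59.0% were higher in obese pigs, and of the 326 regions between 2000000 and 5000000 bases the share was 40.2%. It fell to 16.7% of 354 regions between 5000000 and 10000000 bases, 8.59% of 291 regions up to 20000000 bases and 10.8% of the 824 regions farther inside. Regions near the ends had higher counts, with a median mean count of 21.7 in the outermost class against 13.2 in the innermost. Within regions of a mean count of at least 20, the higher share was 82.4% of 153 outermost and 26.1% of 111 innermost regions. From 15 to 20 it was 37.0% of 54 and 11.5% of 183, and under 15 it was 19.7% of 61 and 7.36% of 530. Captured regions that overlap a locus differed as well, with 75.9% higher in the outermost and 23.5% in the innermost class. Over single libraries, the mean count of regions near the ends divided by that of the interior ones was 1.02 to 1.31 in lean (median 1.17) and 1.21 to 2.41 in obese libraries (median 1.69). The same contrast chose these regions, and 48.7% of those under 5000000 bases from an end were higher in obese pigs. At 10000000 bases or more that share was 10.2%. The choice of regions thus favours a larger ratio in obese libraries. The obese library with the lowest ratio, 1.21, was the one that stood apart above. The obese libraries with 0.44, 0.55, 0.72 and 1 reads per bin had the highest ratios, 2.41, 2.22, 1.98 and 2.29. The deeper obese libraries reached at most 1.73. Lean libraries with 0.63, 0.69 and 0.94 reads per bin had 1.12, 1.19 and 1.09. The part of depth in this pattern was not tested. All regions were read in the same 11 lean and 11 obese libraries, and neighbouring ones can share sequence context. The regions are therefore not independent replicates of this pattern.

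**Figure D2:**
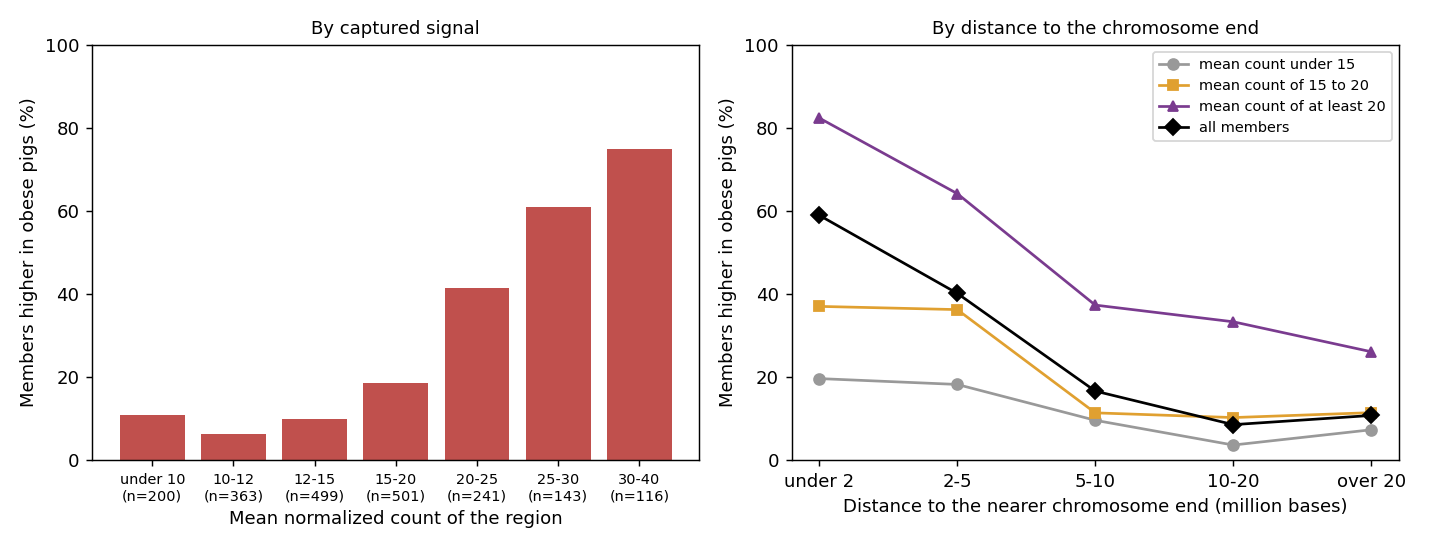
The left panel gives the percentage of regions higher in obese pigs by the mean normalized count of the region, from 11% under a count of 10 to 75% from 30 to 40. The right panel gives it by distance to the nearer chromosome end, for all regions and within 3 classes of mean count, and in each class the outermost regions have a larger higher share than the innermost.

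By chromosome, the regions numbered 41 on chromosome 16 to 200 on chromosome 6. The density was highest on chromosome 18, with 16.8 regions per 10000000 bases of annotated extent, and lowest on chromosome 1, with 3.81. The higher share ran from 13.4% on chromosome 10 to 41.5% on chromosome 16. Within the window of 50000 bases, the lower share was smallest next to the genes. Of the 103 regions at most 1000 bases from a locus 66.0% were lower, and the share was between 75.4% and 83.4% in the 6 classes beyond, without an order by distance among them. The median distance was 13830 bases in the lower and 12908 bases in the higher regions. By coordinate, 1043 regions lay before the start and 1020 after the end of their nearest locus, a count that says nothing of upstream or downstream since the loci carry no strand.

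The captured values of the 11 obese and 11 lean libraries did not overlap in 0.149% of the table and in 3 of the 2063 regions, all lower in obese pigs. The first lay on chromosome 10 (73646801 to 73647800 in Sscrofa10.2), 38472 bases beyond PFKP, the platelet-type phosphofructokinase of glycolysis. Its normalized count was 4.95 to 9.03 in obese (median 7.04, mean 7.23 ± 1.29 SD) and 9.61 to 22.2 in lean libraries (median 14.6, mean 14.6 ± 3.75 SD). The second lay on chromosome 7 (1694701 to 1695800), 4535 bases from MYLK4, a kinase of the myosin light chain kinase family, with 2.44 to 11.2 in obese (median 8.96) and 11.4 to 22.2 in lean libraries (median 15.5). The third lay on chromosome 11 (3814101 to 3815200), 22538 bases from WASF3, a regulator of actin assembly, with 2.05 to 8.72 in obese (median 6.92) and 9 to 16.5 in lean libraries (median 10.98). These 3 regions had log2 ratios of -0.92, -0.80 and -0.74. Their mean counts were 10.9, 12.1 and 8.955, beside a median of 15.45 in the whole table, so they rest on few reads per library.

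The largest ratios belonged to regions whose groups overlapped. The lowest was at an unnamed locus, ENSSSCG00000002069, on chromosome 7 (82208601 to 82210300), with 3.30 to 19.5 in obese (median 6.14) and 7.59 to 40.2 in lean libraries (median 21.4) and a log2 ratio of -1.38. The next lay on chromosome 17 (45986201 to 45987200), 46038 bases from SRC, the founding member of the SRC family of tyrosine kinases. There the count was 0 to 9.03 in obese (median 3.73), with 3 obese libraries at 0, and 7.72 to 14.5 in lean libraries (median 9.30), a log2 ratio of -1.33. Both rested on few reads or a wide lean spread. Among the higher regions, the largest log2 ratio, 0.88, was found on chromosome 17 (46902601 to 46903900), 1526 bases from SNORA71, a small nucleolar RNA of the kind that guides pseudouridylation. Its count was 8.29 to 32.0 in obese (median 12.4) and 5.27 to 14.0 in lean libraries (median 6.62).

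The other higher regions with large ratios had similar overlap. A region near OR6M1, an olfactory receptor gene on chromosome 9, had 7.33 to 18.8 in obese (median 10.8) and 0 to 14.7 in lean libraries (median 4.97). A region near C14ORF2 on chromosome 7 (131004701 to 131006500) had 14.8 to 51.2 in obese (median 24.4) and 5.17 to 29.0 in lean libraries (median 13.5). The last pair lay at unnamed loci, ENSSSCG00000023529 on chromosome 2 and ENSSSCG00000002968 on chromosome 6, with log2 ratios of 0.83 and 0.83. In each of these, at least the highest lean library lay above the lowest obese one.

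**Figure D3:**
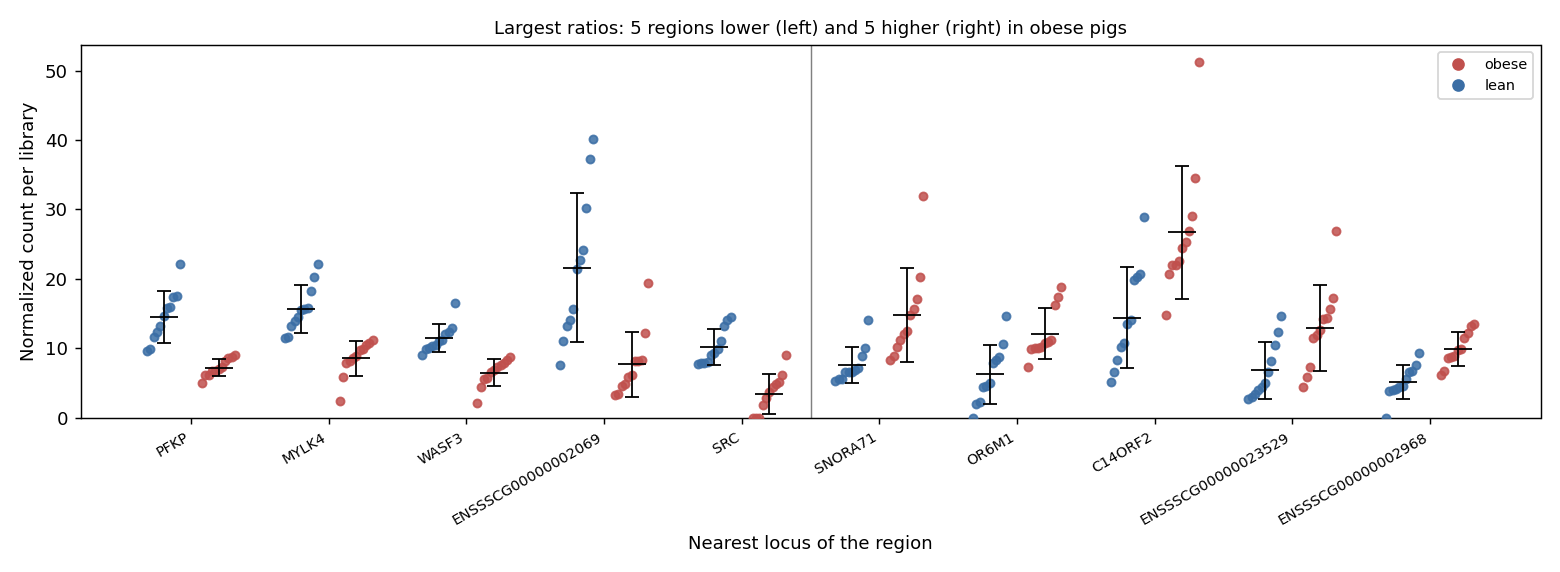
Points are normalized counts of 11 lean (blue) and 11 obese (red) libraries in the 5 lower and 5 higher regions chosen by separation and ratio, labelled by their nearest locus, and black bars give the mean and SD. The groups are apart at PFKP, MYLK4 and WASF3 and overlap at the other 7 regions.

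The limits of the selection cut through similar regions. Just inside the count limit were regions near SHANK2, ENSSSCG00000019569 and a U6 locus with mean counts of 39.2, 39.2 and 39.7, and just outside were regions near ENSSSCG00000027851, FAM70B and ZNF143 with 40.3, 40.4 and 40.4, all 6 higher in obese pigs. Just inside the distance limit lay regions 49769, 49839 and 49941 bases from EIPR1, ENSSSCG00000023942 and GFRA1, and just outside 50127, 50186 and 50339 bases from PRDM2, LRFN2 and CCDC99. The log2 ratios were 0.61, -0.65 and -0.72 inside and -0.62, -0.68 and -0.69 outside that limit.

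The regions had 1628 different nearest loci, of which 1316 had a single region and 312 had more. Of these 312, 193 had only lower regions, 48 only higher ones and 71 both. Of 2045 neighbouring pairs on a chromosome, the median gap was 276600 bases, and 215 pairs lay at most 10000 bases apart. In 164 of those 215 pairs both regions had the same direction, 118 lower and 46 higher. Loci without a gene name were nearest to 371 regions (17.98%), against 25.1% of all loci without one, and loci of small RNA names to 160 regions (7.76%), against 9.25% of all loci.

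The most crowded locus was PCBP3 on chromosome 13, which encodes a poly(rC)-binding protein. It had 7 regions within 42421 bases, 6 of them higher, with log2 ratios from -0.52 to 0.62. SIK1, a salt-inducible kinase on the same chromosome, had 3 lower and 3 higher regions with ratios from -0.65 to 0.60. An unnamed locus on chromosome 18, ENSSSCG00000016735, and a U6 small nuclear RNA locus on the same chromosome had 6 lower regions each, with median log2 ratios of -0.73 and -0.62. NAV3, a neuron navigator gene on chromosome 5, had 5 lower regions with ratios from -1.03 to -0.56. SHANK2, a scaffold protein of synapses, on chromosome 2 and TRAPPC9, a subunit of a vesicle trafficking complex, on chromosome 4 had 5 higher regions each, with medians of 0.49 and 0.45. The TRAPPC9 identifier had 2 separate entries, from 2924070 to 2924149 and from 3019330 to 3021011, and all 5 of its regions lay between them. Regions counted as intergenic there cannot be told apart from regions within a gene that joins both entries, and the same limit applies to other gene models of Sscrofa10.2.

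The share of genes nearest to a region differed among the gene groups relevant to fat cells, beside 6.44% of all 25285 loci. It was 15% of 40 genes in MAPK signalling, 14.3% of 42 in the extracellular matrix list, 19.2% of 26 in the adipogenic list and 11.8% of 34 in insulin signalling. The thermogenic list had 20% of 10, fatty acid and cholesterol synthesis 10% of 20, the endothelial list 10% of 10 and the fibroblast list 7.69% of 13. Developmental factors had 5.36% of 56, triglyceride synthesis 5.88% of 17, DNA methylation 6.25% of 16 and imprinted genes 5% of 20. All list genes have names, whereas 25.1% of all loci have none, and the shares were not tested. The lists were chosen with earlier results of these data known, which can favour larger shares. The thermogenic and the synthesis share rest on 2 genes each and the endothelial share on 1. No gene was nearest to a region in the adipocyte marker list (8 genes with a locus) or the lipolysis and fatty acid oxidation list (21). The same held for the adipokine list (22), the macrophage and leukocyte list (20) and the smooth muscle list (11). At the 6.44% of all loci, lists of this size would hold few such genes, so their absence is a description only. The MAPK signalling list, with 40 genes that have a locus, had 8 regions at 6 genes, and 8 of 8 were lower in obese pigs beside 77.6% of all the regions. NF1, which switches off RAS, had a region 3386 bases away with 0 to 13.4 in obese (median 5.38) and 8.98 to 16.5 in lean libraries (median 10.1). MAPK10, a JNK kinase, had regions at 5674 and 30774 bases, and the nearer one counted 0 to 21.3 in obese (median 10.8) and 11.6 to 28.1 in lean libraries (median 17.7). FGF1, a growth factor ligand, had a region at 9441 bases with 2.05 to 20.8 in obese (median 16.5) and 13.4 to 26.2 in lean libraries (median 21.97). The groups overlapped in each of these regions. DUSP1, a phosphatase that inactivates MAP kinases, had regions at 11408 and 14908 bases with log2 ratios of -0.80 and -0.71. Single regions lay near DUSP10, a phosphatase of the same family, and FOS, a target of the cascade, with ratios of -0.91 and -0.69.

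The adipogenic transcription factors and nuclear receptors had 9 regions at 5 genes, 5 lower and 4 higher. The 3 regions near PPARGC1B, a coactivator of mitochondrial genes, were all higher. The region at 22375 bases had 11.4 to 41.2 in obese (median 22.3) and 3.81 to 23.7 in lean libraries (median 15.5), and the region at 30275 bases had 10.6 to 32.0 in obese (median 17.4) and 8.07 to 13.6 in lean libraries (median 11.3). CEBPA, a factor of terminal adipocyte differentiation, had 2 lower regions, and the nearer one, 9642 bases away, counted 5.81 to 15.8 in obese (median 7.87) and 5.52 to 24.2 in lean libraries (median 14.0). ZNF423, a preadipocyte factor, had 1 lower region with a log2 ratio of -0.59. GATA3, which holds back adipogenesis, had a lower and a higher region close to each other, at 44779 and 47079 bases, with ratios of -0.64 and 0.54.

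The thermogenic list had 4 regions. All 3 near PRDM16, a determinant of brown and beige fat, were higher, with median obese counts of 30.7, 26.9 and 28.7 against lean medians of 21.5, 20.7 and 20.2, and the 1 near FGF21, a secreted regulator of metabolism, was lower, with medians of 20.8 and 31. Insulin signalling had 6 regions. All 3 near RPTOR, the scaffold of mTOR complex 1, were higher, with log2 ratios of 0.44, 0.50 and 0.75. Single lower regions lay near PTPRF, a receptor phosphatase, and PRKAA1, a catalytic subunit of AMP-activated kinase, with ratios of -0.70 and -0.79. Regions of 1 gene share a stretch of chromosome, so 3 regions near a gene do not count as 3 genes.

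The extracellular matrix list had 8 regions at 6 genes, 4 lower and 4 higher. Near THBS2, a matrix thrombospondin, the region at 8437 bases was lower (log2 ratio -0.56) and those at 14237 and 25937 bases were higher (0.43 and 0.49). The neighbouring basement membrane collagens COL4A1 and COL4A2 had a lower region at 3562 bases (-0.68) and a higher one at 6972 bases (0.67), COL5A1 had a higher one (0.56), and COL1A1 and COL6A3 had lower ones (-0.65 and -0.45). All 4 regions near developmental factors were lower, at SOX9 (-0.93 and -0.68), MSX1 (-0.66) and TBX4 (-0.69). In lipid synthesis, FASN, the fatty acid synthase, had a lower region with 7.33 to 29.1 in obese (median 17.7) and 19.9 to 32.3 in lean libraries (median 24.8). INSIG1, which retains the regulator of cholesterol synthesis in the endoplasmic reticulum, had a higher region with 22.6 to 78.2 in obese (median 42.7) and 21.3 to 40.5 in lean libraries (median 34.2). Single regions near LCLAT1 (-0.74), the methyl-CpG-binding protein gene MBD2 (-0.69) and the endothelial marker PECAM1 (-0.74) were lower, and that near the imprinted gene PHLDA2 was higher (0.38).

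RRBS is a second readout of methylation, at CpGs near MspI sites in the same cell material. Its deposited tables give the mean of each group in regions that differed between them. The labels call 13 RRBS samples obese and 10 lean as well, and the deposited means name no pigs. The side on which they count pig-411 is therefore unknown. In the table that required 5 pigs a group, 610 regions in all, 66.1% were more methylated in obese pigs. Only 4 of the 2063 captured regions overlapped one of these, 0.194% of them, against 0.338% of all 7401 captured regions, and the direction was the same in 2 of the 4, beside 17 of 25 overlaps over the whole captured table. Near PPARGC1B (chromosome 2, 157677301 to 157678300) both were higher in obese pigs, with captured means of 18.2 ± 6.16 (SD, n = 11) in obese and 10.9 ± 2.17 in lean libraries, and a methylation of 31.7% and 18.1% over 10 CpGs. Near ZNF614, a zinc finger gene on chromosome 6, both were lower, with captured means of 17.8 ± 6.88 and 26.9 ± 8.24 and a methylation of 19.999% and 30.6% over 14 CpGs. The directions were opposite near SLC47A1, a drug and cation exporter on chromosome 12, where capture was higher in obese libraries (29 ± 4.74 against 19.9 ± 5.65) and methylation lower (66.1% against 84.4%, 10 CpGs). They were also opposite near a 5S ribosomal RNA locus on chromosome 6 (19.2 ± 10.4 against 11.8 ± 6.15 in capture, 54.3% against 69.1% in methylation, 14 CpGs). The RRBS means are pooled values of the authors without an SD, and the depth behind them is unknown.

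With 3 pigs a group required, 2416 RRBS regions in all, of which 61.1% were more methylated in obese pigs, 15 captured regions overlapped and 10 had the same direction. Of the 15, 13 were among the 462 higher regions (2.81% of them) and 2 among the 1601 lower regions (0.125%), and the RRBS direction was the same in 8 of 13 and 2 of 2. Over the whole captured table, 84 of 7401 regions (1.13%) overlapped, and 64 of their 89 overlaps had the same direction. The PPARGC1B region appeared again, at 49.1% in obese and 21.8% in lean pigs. A region 25852 bases from ssc-mir-378-1, on the same stretch of chromosome 2, had 60.8% and 32.1%, and the one near C14ORF2 had 54.8% and 36.4%, each with higher capture in obese libraries too. These 2 were named after their values had been seen. At the 8 regions where capture and RRBS methylation were both higher in obese pigs, lean methylation was 8.12% to 47.8%. At the 5 regions of higher capture and lower RRBS methylation, lean methylation was 71.97% to 89.6%, the last near PCGF3, a Polycomb group gene, with 75.3% in obese pigs. The study kept RRBS regions only above a minimum difference between the groups. The part of that minimum and of the lean level in this contrast was not tested.

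Whether the nearest genes differed in expression was asked in the RNAseq of 5 lean and 5 obese boars. Of the 1628 nearest genes, 37.5% had a mean scaled FPKM of at least 1, against 40.3% of all genes, and 614 entered a limma fit of 10246 genes. In that fit 0.00976% of all genes, 1 in number, passed an adjusted p of 0.05, and 0 of the 614 did. The smallest adjusted p among them was 0.0516 with limma. At an unadjusted p under 0.05, 92 of the 614 were higher in obese pigs (15%) and 45 lower (7.33%), beside 10.6% and 10.2% of all genes tested. One obese pig, replicate 1, lay far from the other 4 in 7 of the genes named here. Without it the counts were 82 and 44, beside 9.92% and 9.79% of all genes. With the FPKM values as deposited instead of rescaled, 50 were higher and 27 lower, beside 5.98% and 7.64% of all genes.

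Genes nearest to higher regions only, 122 tested, were higher in 20.5% and lower in 7.38% at an unadjusted p under 0.05. Those nearest to lower regions only, 472 tested, were higher in 13.8% and lower in 7.42%. The median log2 difference was 0.09 and 0.01, against -0.0013 over all genes tested. Position moved with this: of all tested genes less than 5000000 bases from a chromosome end, 16.7% were higher and 6.3% lower, against 10.2% and 10.4% of those farther inside. Among genes nearest to higher regions the shares were 23.6% and 4.17% near the ends (72 genes) and 16% and 12% inside (50 genes). Among genes nearest to lower regions they were 20.6% and 3.17% near the ends (63 genes) and 12.7% and 8.07% inside (409 genes). Neither the difference between these groups of genes nor the part of position in it was tested.

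The values of the 5 lean and 5 obese pigs did not overlap in 29 of the 614 genes, 4.72%, beside 4.13% of all genes tested. Of these 29, 22 were higher and 7 lower in obese pigs. LRRK1, a leucine-rich repeat kinase 17635 bases from a lower region, had the largest positive difference. Its scaled FPKM was 0.919, 1.13, 2.04, 2.28 and 2.71 in lean and 4.51, 4.66, 4.81, 5.67 and 6.02 in obese pigs. Every obese pig lay above every lean pig, and the log2 difference was 1.16 ± 0.18 (SE). GCLM, the regulatory subunit of the enzyme that starts glutathione synthesis, lay 14469 bases from a higher region, with 6.74, 8.12, 12.2, 13.3 and 14.1 in lean and 15.4, 15.7, 20.8, 21.9 and 24.8 in obese pigs. RNPEPL1, an aminopeptidase-like gene with 2 higher regions, had 1.66, 2.28, 2.32, 2.69 and 2.76 in lean and 3.26, 4.22, 4.74, 4.89 and 5.41 in obese pigs. GATD3 and FAM174B, each near a lower region, had log2 differences of 1.14 ± 0.25 and 0.86 ± 0.23. Of these 5 genes, 3 lay near lower and 2 near higher regions.

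The 5 largest negative differences without overlap belonged to genes near lower regions, which were nearest to 472 of the 614 genes tested as their sole direction. Groups did not overlap in 23 of these 472 genes (4.87%) and in 6 of the 122 genes near higher regions only (4.92%). FNBP1L, a membrane-bending protein of endocytosis 3759 bases from a region, had 0.918, 1.17, 1.28, 1.552 and 2.83 in lean and 0.191, 0.208, 0.523, 0.682 and 0.841 in obese pigs. ENSSSCG00000016735, the unnamed locus with 6 lower regions, had 12.7, 13.7, 17.2, 18.6 and 18.7 in lean and 7.83, 9.04, 9.32, 11.4 and 11.4 in obese pigs, a log2 difference of -0.67 ± 0.14. The nearest of its 6 regions, 429 bases away, had a captured mean of 7.07 ± 4.22 (SD, n = 11) in obese and 14.3 ± 5.65 in lean libraries. ZNF217, a zinc finger transcription factor, N4BP2 and ANKRA2 had log2 differences of -0.62 ± 0.20, -0.55 ± 0.13 and -0.50 ± 0.12. Since the 10 genes were chosen for groups that do not overlap, the two-sided exact permutation p of each is 0.00794, the smallest value the design allows, by that choice alone. Their adjusted p in limma lay between 0.0549 for LRRK1 and 0.161 for ZNF217.

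**Figure D4:**
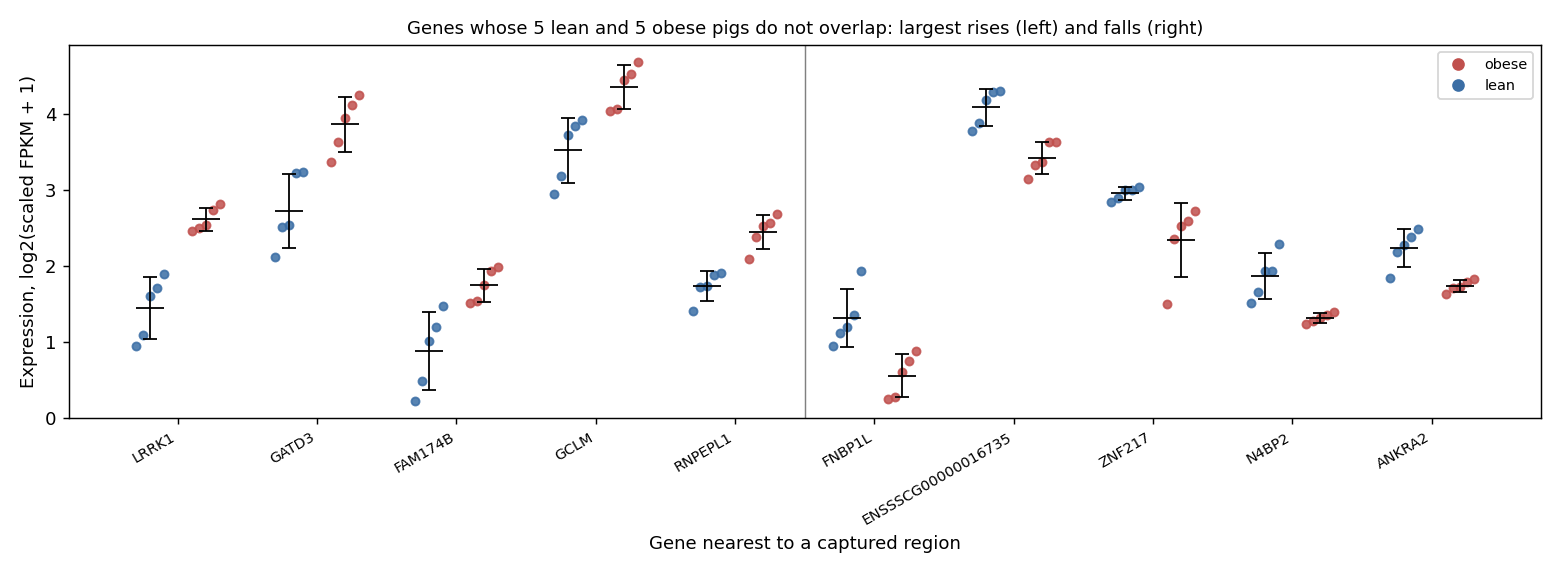
Points are log2 of the scaled FPKM plus 1 in 5 lean (blue) and 5 obese (red) pigs for the 5 largest positive and the 5 largest negative differences among genes nearest to a captured region whose groups did not overlap, and black bars give the mean and SD. LRRK1 has the largest positive difference, 1.16, and FNBP1L the largest negative one, -0.76 on the log2 scale.

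Genes at the regions with the largest captured differences had no such separation. PFKP had 0.381, 1.28, 2.79, 3.87 and 7.66 in lean and 0.476, 0.543, 0.575, 0.840 and 4.01 in obese pigs, and the groups overlapped (two-sided exact permutation p = 0.206). SRC had a mean of 1.53 ± 0.71 (SD, n = 5) in lean and 1.84 ± 0.44 in obese pigs, and SNORA71 had 521 ± 221 and 346 ± 132. MYLK4, WASF3 and OR6M1 were below an FPKM of 1 in every pig. SHANK2, PCBP3 and the U6 locus, with 5 to 7 regions each, were listed at 0 in every pig.

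Within the gene lists, 22 genes near captured regions were tested, of which 8 (36.4%) had an unadjusted p under 0.05 in limma, beside 20.8% of all genes tested, and 0 passed the adjusted threshold. The lists were chosen with earlier results of these data known, which can favour such a share, so it is a description only. In MAPK signalling, 5 genes were tested. FOS had a mean of 431 ± 194 (SD, n = 5) in lean and 184 ± 102 in obese pigs (two-sided exact permutation p = 0.0476), and DUSP10 had 10.9 ± 3.29 and 5.99 ± 2.39 (exact permutation p = 0.0397). FGF1 had 0.881 ± 0.52 and 1.56 ± 0.46 (exact permutation p = 0.0556). DUSP1 had 234 ± 88.5 and 164 ± 74.5 (exact permutation p = 0.222) and NF1 5.73 ± 0.970 and 5.95 ± 0.830 (exact permutation p = 0.683). The regions near all 5 genes were lower in obese pigs, while the mean expression was lower in obese pigs for 3 of them and higher for FGF1 and NF1. CEBPA had 7.73, 7.79, 10.5, 13.6 and 17.8 in lean and 13.3, 16.1, 18.7, 20.5 and 21.3 in obese pigs (exact permutation p = 0.0397). In the matrix list THBS2 had 16.1 ± 6.47 and 6.32 ± 3.87 (exact permutation p = 0.0159) and COL6A3 3.74 ± 0.74 and 1.71 ± 1.43 (exact permutation p = 0.0317). The limma adjusted p of the 6 genes named with an unadjusted p under 0.05 ran from 0.121 for THBS2 to 0.204 for FGF1. PPARGC1B, PRDM16, FGF21, SOX9, MSX1, TBX4 and PHLDA2 stayed below an FPKM of 1 in every pig, so the regions near them could not be set beside expression in these libraries.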

How the data were processed

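RNAseq samples were grouped by their labels, and the mDNAcap and RRBS groups are those of the deposited comparisons. The members and gene lists were chosen with earlier results of these data known. For mDNAcap the authors mapped trimmed reads (Trimmomatic 0.22) to Sscrofa10.2 with segemehl and ran diffReps with a G-test, a window of 1000 bases, a step of 100 and a p cutoff of 0.0001. The deposited values are normalized counts of 11 obese and 11 lean libraries a region, each a read count over the constant of its library, and the deposited group signal is their mean. Since that contrast chose the regions and the table holds no raw counts, no count model was fitted. For RRBS the authors called CpGs with Bismark 0.10 and Bowtie2 2.1.0, and the deposited fraction is a group's mean methylation in a metilene region. For RNAseq they mapped with STAR 2.3.1 and deposited FPKM from Cufflinks 2.2.0. The authors' own fold changes, p-values and q-values and their table of hotspots were not used.

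Gene loci were those of the FPKM tables, 25285 identifiers, and distance was counted to the nearest locus with the method checked against bedtools 2.31.1. Both libraries of pig-572 were averaged and FPKM values scaled by the median of ratios, 9 genes with a failed estimate were left out, and those whose mean FPKM reached 1 were tested by limma 3.58.1 (eBayes with trend, R 4.3.3) on log2(FPKM + 1), with Benjamini-Hochberg adjustment. Fold changes of low genes are understated on this scale. Replicates are pigs. Fits were tested on simulated data. The depth of RNAseq and RRBS libraries is unknown. Regions named were the 5 lower and 5 higher with the largest ratios, those without overlap first, those overlapping an RRBS region, and 3 on each side of a limit. Genes named were the most crowded loci, list genes (up to 4 regions a list, others named after their values were seen) and the 5 largest rises and falls without overlap. Values of 2 list genes are not reported here. Computations used Python 3.11.15, numpy 2.4.6, pandas 2.3.3 and matplotlib 3.10.9.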

Additional observations from a re-analysis of the deposited data

Results flagged for a closer look

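Among the 35 genes named with an FPKM of at least 1 in a group, 70 groups of 5 pigs were examined for a pig far from the other 4, and 8 were found, where chance marks about 1 in 20 groups if they are independent, which groups of the same pigs are not. Of the 8, 7 were in the same pig, obese replicate 1. It had the highest value of the obese pigs for PFKP (4.01 against 0.840 in the next), FASN (2406 against 1119), INSIG1 (91.9 against 50.5), NF1 (7.38 against 5.82), COL4A1 (95.0 against 67.2), COL4A2 (57.0 against 37.8) and TRAPPC9 (1404 against 16.8). The TRAPPC9 value adds 2 separate entries of the annotation. Lean replicate 3 had the highest value of the lean pigs for THBS2 (27.3 against 15.1). Without obese replicate 1, 82 of the genes nearest to captured regions were higher and 44 lower in obese pigs at an unadjusted limma p under 0.05. Beside them stood 9.92% and 9.79% of all genes, and 0 of the nearest genes passed the adjusted threshold. The cause was not tested.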

How the results depend on the processing

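The counts of lower and higher regions were 1601 and 462 under the median-of-ratios scaling, the scaling by the mean read count per bin, a pseudocount of 5 and without the obese library that stood apart, and 1600 and 463 from medians. All regions had passed the authors' cutoff under the deposited scaling and were not chosen anew in each setting. Their selection therefore favoured unchanged directions, and these counts are no test of the direction. Smaller sets gave smaller counts by construction, with 634 lower regions at a mean count of at least 15, 629 lower and 200 higher at most 10000 bases from a locus, and, chosen after seeing the data, 1001 lower and 114 higher more than 10000000 bases from the chromosome ends. Among regions past the limma threshold (1588 lower, 444 higher), the lower count was 234 with the median of ratios, 311 with the scaling per bin, 622 at a mean count of at least 15 and 620 within 10000 bases, and the higher count was 193 within 10000 bases. RRBS overlaps rose from 4 to 9 within 1000 bases and to 15 in the 3-pig table. The median distance was 13618 bases to any locus and 15107 to a named one.

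For the nearest genes at an unadjusted p under 0.05 (92 higher, 45 lower), the counts were 50 and 27 with FPKM as deposited, beside 5.98% and 7.64% of all genes. Within 10000 bases they were 51 and 17, or 18.2% and 6.07% of 280 tested, beside 10.6% and 10.2% of all genes. Without a filter on low values 78 were lower, beside 7.91% of all genes. Leaving out each pig gave 65 to 96 higher and 26 to 55 lower genes, with 26 lower ones without lean replicate 3. The 0 genes past the adjusted threshold became 10 with both libraries of pig-572 counted apart, beside 1.73% of all genes. They became 0 to 9 when a pig was left out, with 9 without lean replicate 1, beside 1.58% of all genes. The cause was not tested. All 140 alternative values of the 10 named genes kept their direction, which their choice for groups without overlap fixes when a pig is left out. No paired analysis was possible because the labels number the pigs and no number stands in both groups of an assay. Regions with few reads per library limit the precision, and the missing animal names prevent values by sex.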
